A study of Mus musculus with 10 samples.

Results

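H3K27me3 and H3K9me3, the repressive histone H3 marks mapped in mouse Müller glia, were compared to see which genes and chromosomes carry H3K27me3 only, H3K9me3 only or both. The comparison used 4 of the 10 libraries of the series, of which 8 come with a list of enriched regions, called islands. The libraries were chosen by the antibody named on their labels: H3K27me3 in Exp1 and Exp2, with 7743 and 4105 islands, and H3K9me3 in Exp1 and Exp2, with 9690 and 5621 islands, of 153631 islands in all 8 lists. A base was assigned to a mark when islands covered it in both experiments, and each experiment was also read alone. Genes were described as 21887 protein-coding genes, each counted for a mark when islands covered at least 50% of its length, start to end, in both experiments. A gene counted for H3K27me3 and not for H3K9me3 is called H3K27me3 only, and the reverse H3K9me3 only. A gene counted for neither mark may still hold islands over less than 50% of its length, or in a single experiment.

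The series mapped 4 histone H3 marks by chromatin immunoprecipitation and sequencing. All libraries, those of H3K27me3 and those of H3K9me3 alike, came from Glast+ cells of C57BL/6 retinas at postnatal day 28, with no treatment and no altered gene named on the labels. Glast, the glutamate transporter encoded by Slc1a3, is used to isolate Müller glia, the main support cells of the retina. Each mark had 2 experiments, and the labels give neither the sex nor the number of animals behind them, so p-values and SDs measure only the spread between these libraries, which may be technical.

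H3K27me3 is written by Polycomb repressive complex 2, whose catalytic subunit is Ezh2, and marks silent genes that other cell types or stages use, above all those of developmental transcription factors. H3K9me3 is written by Setdb1 and the Suv39h enzymes, is bound by heterochromatin protein 1, and marks repeats, transposons and clusters of duplicated genes such as zinc finger genes and olfactory receptors. In differentiated cells both are found in broad domains, and they are usually described as separate systems.

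H3K4me3, a mark of promoters in use, lay at an end of 9 of 10 Müller glia marker genes in Exp1 and 9 of 10 in Exp2, with Aqp4 lacking it. It also lay at 5 of 6 rod markers in each experiment, at 0 of 6 microglia markers in Exp1 and 2 of 6 in Exp2, at 1 and 2 of 5 endothelial markers, and at 1 and 1 of 4 pigment epithelium markers. In the longer gene lists used below it lay at 13 of 13 cone, 15 of 16 bipolar and 7 of 13 amacrine genes in each experiment. There it also lay at 12 and 14 of 20 ganglion, 3 and 5 of 6 horizontal and 2 and 5 of 12 microglia genes. Islands are called from all cells of a preparation, so a base with both marks need not carry them in the same cells, and fewer cells with a mark cannot be told apart from less of the mark per cell. The part of rods and other neurons in the repressive islands was not tested.

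Promoter sequences of 6 genes are shown to give a view of the DNA under each state, with the bases just before the annotated start, 5′ to 3′ on the gene's strand and CG dinucleotides in capitals. They are from the RefSeq promoter table of GRCm38.p6, whose coordinates are those of mm10. Lhx1 (chr11:84525535-84525784, minus strand), a homeobox gene of horizontal cells, and Pou4f2 (chr8:78436648-78436897, minus strand), a transcription factor gene of ganglion cells, lay in H3K27me3 islands and outside H3K9me3 islands in both experiments.
Lhx1: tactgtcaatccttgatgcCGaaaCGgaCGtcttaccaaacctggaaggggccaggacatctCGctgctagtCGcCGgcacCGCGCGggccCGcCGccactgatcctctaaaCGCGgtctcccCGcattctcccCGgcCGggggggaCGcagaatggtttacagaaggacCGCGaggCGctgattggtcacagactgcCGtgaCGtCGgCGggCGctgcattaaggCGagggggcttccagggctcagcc
Pou4f2: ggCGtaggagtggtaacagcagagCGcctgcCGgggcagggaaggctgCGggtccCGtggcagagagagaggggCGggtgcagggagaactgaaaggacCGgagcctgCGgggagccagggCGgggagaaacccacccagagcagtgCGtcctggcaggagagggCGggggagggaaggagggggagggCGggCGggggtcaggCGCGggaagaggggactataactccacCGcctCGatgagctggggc
The promoters of Zfp141 (chr7:42505779-42506003, minus strand), a zinc finger gene, and Vmn2r93 (chr17:18298031-18298280, plus strand), a vomeronasal receptor gene, lay in H3K9me3 islands and outside H3K27me3 islands in both experiments. For Zfp141 the 225 bases outside the annotated gene are shown, and for the others 250.
Zfp141: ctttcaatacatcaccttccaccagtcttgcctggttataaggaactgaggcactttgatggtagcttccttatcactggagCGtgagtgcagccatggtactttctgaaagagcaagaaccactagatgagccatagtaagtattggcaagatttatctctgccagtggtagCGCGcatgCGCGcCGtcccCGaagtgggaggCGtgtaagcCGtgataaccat
Vmn2r93: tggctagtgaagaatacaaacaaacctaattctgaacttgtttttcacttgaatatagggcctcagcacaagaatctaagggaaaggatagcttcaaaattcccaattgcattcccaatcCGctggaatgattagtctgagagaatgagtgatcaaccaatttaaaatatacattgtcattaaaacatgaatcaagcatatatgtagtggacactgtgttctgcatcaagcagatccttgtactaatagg
Vmn1r100 (chr7:20417692-20417941, plus strand), another vomeronasal receptor gene, had both marks in both experiments. Glul (chr1:153899679-153899928, plus strand), which encodes glutamine synthetase of Müller glia, had neither.
Vmn1r100: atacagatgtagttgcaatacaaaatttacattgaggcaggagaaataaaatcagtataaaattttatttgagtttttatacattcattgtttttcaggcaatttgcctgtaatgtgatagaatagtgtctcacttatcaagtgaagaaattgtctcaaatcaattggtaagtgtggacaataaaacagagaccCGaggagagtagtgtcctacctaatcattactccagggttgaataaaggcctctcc
Glul: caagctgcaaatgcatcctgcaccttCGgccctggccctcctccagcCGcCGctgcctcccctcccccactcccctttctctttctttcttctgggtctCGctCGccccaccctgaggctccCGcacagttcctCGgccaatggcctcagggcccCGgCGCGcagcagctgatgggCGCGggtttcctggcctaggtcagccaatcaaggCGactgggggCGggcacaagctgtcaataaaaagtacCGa
The stretch held 26 CG at Lhx1 and 17 at Pou4f2, 9 at Zfp141 and 1 at Vmn2r93, 1 at Vmn1r100, and 15 at Glul. Of 17492 promoters of protein-coding genes in the table, 92.6% held at least 1 CG in the 250 bases before the start, and the median was 10. These genes were picked as examples from the named genes and do not stand for their states.

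Both marks covered similar shares of the genome, and most of what either covered was shared with the other. H3K27me3 islands covered 25.9% of the genome in Exp1 and 19.4% in Exp2, against 22.4% and 17.7% for H3K9me3. The means were 22.7% ± 4.60 for H3K27me3 and 20.1% ± 3.31 for H3K9me3 (SD, n = 2 each). The marks overlapped, and the difference of 2.61 percentage points had an exact two-sided permutation p of 0.667 over the 4 libraries, where the smallest possible p is 0.333. In each experiment H3K27me3 covered more than H3K9me3, by 3.52 points in Exp1 and 1.70 in Exp2. This exact test cannot reach 0.05 with 2 libraries a mark, and differences below are given as values with the spread between experiments.

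Of the genome, 6.13% (166.8 Mb) was covered by H3K27me3 only, 5.10% (138.8 Mb) by H3K9me3 only and 11.0% (300.1 Mb) by both, each mark in both experiments. Thus 64.3% of the H3K27me3 length lay in H3K9me3, and 68.4% of the H3K9me3 length lay in H3K27me3. The shared length was 3.99 times the product of the coverages of the marks, as a description with no test. That ratio was lower in other readings, with 2.95 within Exp1, 3.42 within Exp2 and 2.70 with islands of either experiment. Within Exp1 the shares were 8.78%, 5.27% and 17.1% for H3K27me3 only, H3K9me3 only and both, and within Exp2 they were 7.65%, 5.95% and 11.8%. On a shared grid of 15 kb they were 6.08%, 5.03% and 11.0%.

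**Figure D1:**
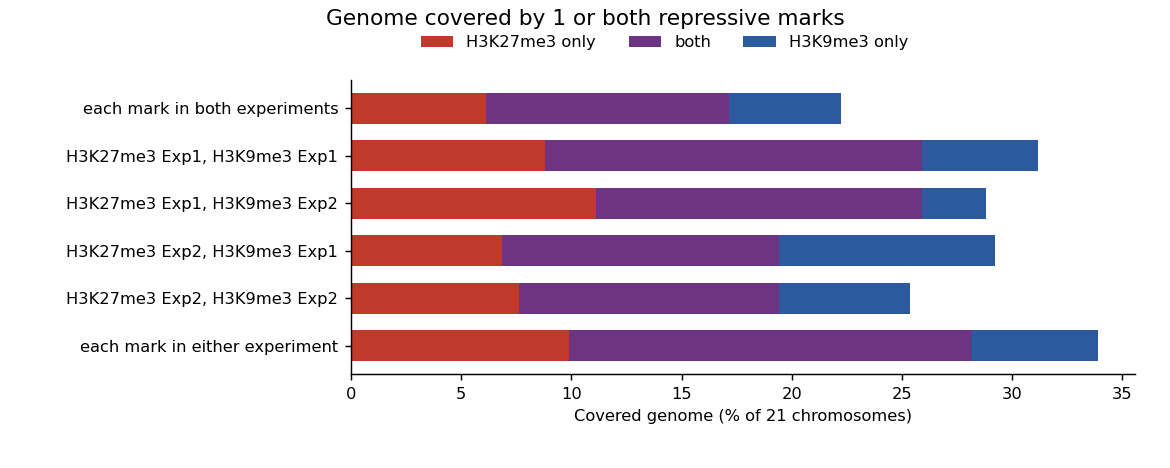
Share of the genome (x axis, percent of the length of 21 chromosomes) covered by H3K27me3 only (red), by both marks (purple) and by H3K9me3 only (blue). Rows run over marks required in both experiments, the 4 pairings of single experiments, and marks in either experiment. The shared part ran between 11.0% and 18.3% and was the longest of the 3 in every row.

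More of the H3K27me3-only length than of the H3K9me3-only length was free of the other mark in both experiments. Of the H3K27me3-only length, 75.2% (125.4 Mb) had no H3K9me3 island in either experiment. Of the H3K9me3-only length, 33.2% (46.1 Mb) had no H3K27me3 island in either experiment, so most of it lay in H3K27me3 in 1 of the 2. Pairing H3K27me3 of Exp2 with H3K9me3 of Exp1 gave 9.81% of the genome as H3K9me3 only, and pairing H3K27me3 of Exp1 with H3K9me3 of Exp2 gave 2.91%. The H3K27me3 list of Exp2 had 4105 islands against 7743 in Exp1. The depth of the libraries is unknown, and its part in this was not tested. The covered length shared by Exp1 and Exp2, divided by that in either, was 0.609 for H3K27me3 and 0.672 for H3K9me3. Between marks the same ratio was 0.549 within Exp1 and 0.464 within Exp2.

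Single islands showed the same mixture. In Exp1, 963 of 7743 H3K27me3 islands touched no H3K9me3 island and 3500 lay at least 90% inside H3K9me3. In Exp2, 986 of 4105 touched none and 1608 lay at least 90% inside. Of the H3K9me3 islands of Exp1, 1938 of 9690 touched no H3K27me3 island and 4596 lay at least 90% inside it, and in Exp2 the counts were 2189 and 1998 of 5621. H3K27me3 islands free of H3K9me3 were 65 kb wide by the median in Exp1 and 85 kb wide in Exp2, against 35 kb and 60 kb for those at least 90% inside. H3K9me3 islands free of H3K27me3 were 21 kb and 36 kb wide by the median, against 33 kb and 45 kb inside it.

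Stretches of both marks reached lengths that neither mark reached alone. H3K27me3-only stretches numbered 4356, with a median of 25 kb, H3K9me3-only stretches 5193, with 16 kb, and stretches of both 3825, with 39 kb. The widest of each were 755 kb, 363 kb and 3295 kb. The longest H3K27me3-only stretches lay on chromosome 4 around Pou3f1 (755 kb), on chromosome 13 around Irx2 (726 kb) and on chromosome 8 around Sox1 (719 kb), which all encode developmental transcription factors. Such stretches may hold H3K9me3 of a single experiment: H3K9me3 islands covered Irx2 in Exp1 and not in Exp2. The longest H3K9me3-only stretches held few genes: that of 363 kb on chromosome X held Cldn34c4, and those of 345 kb and 333 kb on chromosome 9 held 0 whole protein-coding genes. The longest stretches of both marks were 3295 kb and 2940 kb on chromosome 12 and 2937 kb on chromosome 14, with 21, 14 and 44 protein-coding genes, most of them named Gm, the provisional symbol of predicted mouse genes. Clusters of near-identical copies share reads, and how reads with several matches were placed is not given in the sources used here.

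Chromosome X was the sole chromosome on which both H3K9me3 libraries lay above both H3K27me3 libraries. H3K27me3 covered 38.5% of it in Exp1 and 31.1% in Exp2, against 42.6% and 40.6% for H3K9me3. The mean difference, H3K27me3 minus H3K9me3, was -6.80 points (-4.09 in Exp1 and -9.51 in Exp2, exact permutation p = 0.333, the smallest possible). On the autosomes together H3K27me3 covered 25.9% and 19.3%, against 21.5% and 16.7% for H3K9me3, a difference of 3.50 points with overlapping libraries (exact permutation p = 0.667). H3K9me3 only covered 12.9% of X, against an autosomal range of 1.10% to 6.97%. Both marks covered 23.1% of X, and 83.7% of its H3K27me3 length lay in H3K9me3.

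On 6 of 21 chromosomes, 5, 7, 9, 11, 17 and 19, both H3K27me3 libraries lay above both H3K9me3 libraries, and on 14 they overlapped. The difference was positive in both experiments on 16 of 19 autosomes and changed sign between experiments on chromosomes 1, 3 and 10. On chromosome 11, which is dense in genes, H3K27me3 covered 22.7% and 17.2%, against 12.5% and 8.58% for H3K9me3, and 32.7% of its H3K27me3 length lay in H3K9me3, the lowest autosomal share. On chromosome 19 H3K27me3 covered 24.9% and 19.3%, against 14.9% and 11.9% for H3K9me3, and H3K9me3 only covered 1.10%. Chromosome 7, which holds large olfactory and vomeronasal receptor clusters, had 39.4% and 36.5% H3K27me3, against 31.5% and 29.5% H3K9me3, and the highest autosomal share with both marks, 25.3%. Over the 19 autosomes the mean coverages of the marks had a Pearson correlation of 0.82, given as a description, since the points share the same 4 libraries. On Y, H3K27me3 covered 2.27% and 0.336% and H3K9me3 8.98% and 1.64%, which overlapped.

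**Figure D2:**
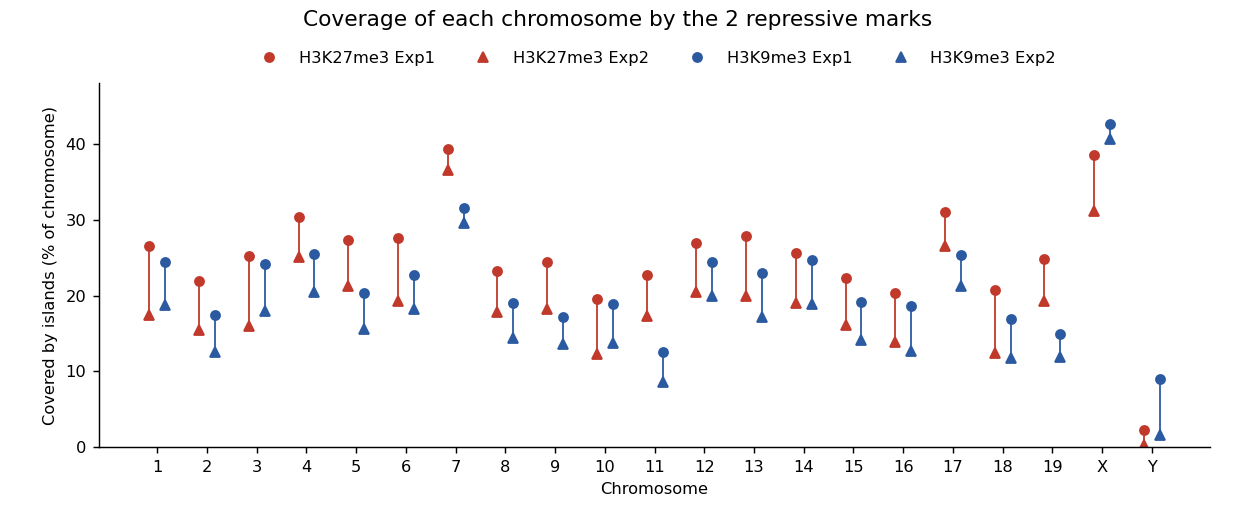
Percent of each chromosome (x axis) covered by islands (y axis), with H3K27me3 in red left of H3K9me3 in blue, Exp1 as circles, Exp2 as triangles and a line joining the experiments of a mark. On X the H3K9me3 points at 42.6% and 40.6% lie above the H3K27me3 points at 38.5% and 31.1%, and on chromosome 11 the H3K27me3 points lie above those of H3K9me3.

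Position along the autosomes separated the states. Mouse autosomes have their centromere at the start of the sequence, and each was cut into 5 equal parts after its first 3 Mb. Both marks covered 19.0% of the part nearest the centromere and 6.82% of the last. H3K9me3 only covered 6.13% of the first part and 2.53% of the last, while H3K27me3 only covered 6.04% of the first and 8.78% of the last. All 4 libraries covered less of the last part than of the first: 22.9% against 35.6% for H3K27me3 in Exp1, 19.5% against 26.9% in Exp2, 13.6% against 32.4% for H3K9me3 in Exp1 and 10.4% against 27.2% in Exp2.

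Of the 21887 protein-coding genes, 2105 (9.62%) were H3K27me3 only, 354 (1.62%) H3K9me3 only and 2230 (10.2%) had both, while 17198 had neither. Single experiments gave 2446, 308 and 2818 genes in Exp1 and 2731, 472 and 2364 in Exp2, and 1747, 131 and 2233 genes had the same state in each. Of the genes with both marks, 2054 were covered by both from end to end in both experiments. With the other mark required to be absent from every base of the gene in both experiments, a rule added after the data were seen, 1605 H3K27me3-only genes (7.33%) and 103 H3K9me3-only genes (0.471%) were left. Of the 354 H3K9me3-only genes, 224 had H3K27me3 over at least 50% of the gene in 1 experiment, and of the 2105 H3K27me3-only genes 363 had H3K9me3. Coverage of H3K27me3 was above that of H3K9me3 without overlap between libraries at 2465 genes (11.3%), and that of H3K9me3 above H3K27me3 at 423 (1.93%). Just inside and outside the 50% threshold, 106 genes had 50% to under 60% H3K27me3 and 108 had 40% to under 50%, and for H3K9me3 these counts were 66 and 62. H3K9me3-only genes numbered 315 when 90% of the gene had to be covered and 745 when 1 bp sufficed, so that count depended on the rule. Neighbouring genes share islands. Genes of a state lay in or across 1102 H3K27me3-only, 262 H3K9me3-only and 599 shared stretches, with up to 20, 7 and 61 genes in 1 stretch.

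Genes were spread unevenly over chromosomes. Over all genes 9.62% were H3K27me3 only, 1.62% H3K9me3 only and 10.2% had both. On chromosome 7, 492 of 2030 genes (24.2%) had both marks, and on chromosome 14 there were 167 of 851 (19.6%). On chromosome 15, 127 of 776 genes (16.4%) were H3K27me3 only, 1 was H3K9me3 only and 12 had both. On chromosome 19, 73 of 705 genes (10.4%) were H3K27me3 only, near the share of all genes, and 0 were H3K9me3 only. On X, 51 of 966 genes (5.28%) were H3K27me3 only, 46 (4.76%) H3K9me3 only and 201 (20.8%) had both. Chromosome 2 held the most H3K9me3-only genes, 66 of 1782, of which 56 were olfactory receptors.

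Developmental transcription factors mostly carried H3K27me3, and how many lacked H3K9me3 differed between experiments. Of 172 genes of the Hox, Pax, Tbx, Fox, Gata, Sox and other homeobox families, 127 (73.8%) were H3K27me3 only, against 9.62% of all genes, 0 were H3K9me3 only, and Nkx6-1 and Sox14 had both. In Exp1 alone 79 were H3K27me3 only and 52 had both, and in Exp2 alone 128 were H3K27me3 only and 2 had both. With H3K9me3 absent from both experiments, 74 stayed H3K27me3 only, against 7.33% of all genes. Of the 28 Nkx, Lhx and Gata genes, 25 were H3K27me3 only, 19 of them with no H3K9me3 in either experiment. Pax7, which specifies muscle stem cells, Tbx5, of heart and forelimb, Pdx1, of pancreas, and Myod1, of skeletal muscle, were each covered over 100% of the gene by H3K27me3 and 0% by H3K9me3 in both experiments. Gata4, of heart and endoderm, had 98.5% and 98.5% H3K27me3, against 39.4% and 0% H3K9me3. Of 44 Fox genes 23 were H3K27me3 only, of 15 Tbx genes 11, of 9 Pax genes 6 and of 19 Sox genes 8. The Sox genes included Sox2 and Sox9, factors in use in Müller glia, which also had H3K4me3 at an end in both experiments. H3K27me3 covered 50.3% of Sox9 in Exp1 and 100% in Exp2, just inside the threshold.

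The Hox clusters differed between experiments. Hox genes set position along the body axis. All 39 were covered by H3K27me3 in both experiments, and all 39 were also covered by H3K9me3 in Exp1 and 0 in Exp2, so that they counted as H3K27me3 only by the rule for both experiments while 0 met the rule of no H3K9me3 anywhere. The H3K27me3 islands over Hoxa (chr6:52155367-52260880) were 395 kb wide in Exp1 and 365 kb in Exp2, over Hoxb (chr11:96194316-96368254) 645 kb and 475 kb, over Hoxc (chr15:102921131-103036856) 490 kb and 455 kb, and over Hoxd (chr2:74668225-74765142) 240 kb and 225 kb. The H3K9me3 islands of Exp1 were narrower, with 264 kb at Hoxa, 255 kb at Hoxb, 216 kb at Hoxc and 186 kb at Hoxd. Their p-values in the authors' deposited table were 7.83e-23, 1.46e-46, 1.19e-31 and 1.59e-28, while all 8 H3K27me3 islands were listed at 0. Irx2 and Foxa1 likewise had 100% H3K9me3 in Exp1 and 0% in Exp2. What sets the H3K9me3 islands of Exp1 apart at these loci was not tested.

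**Figure D3:**
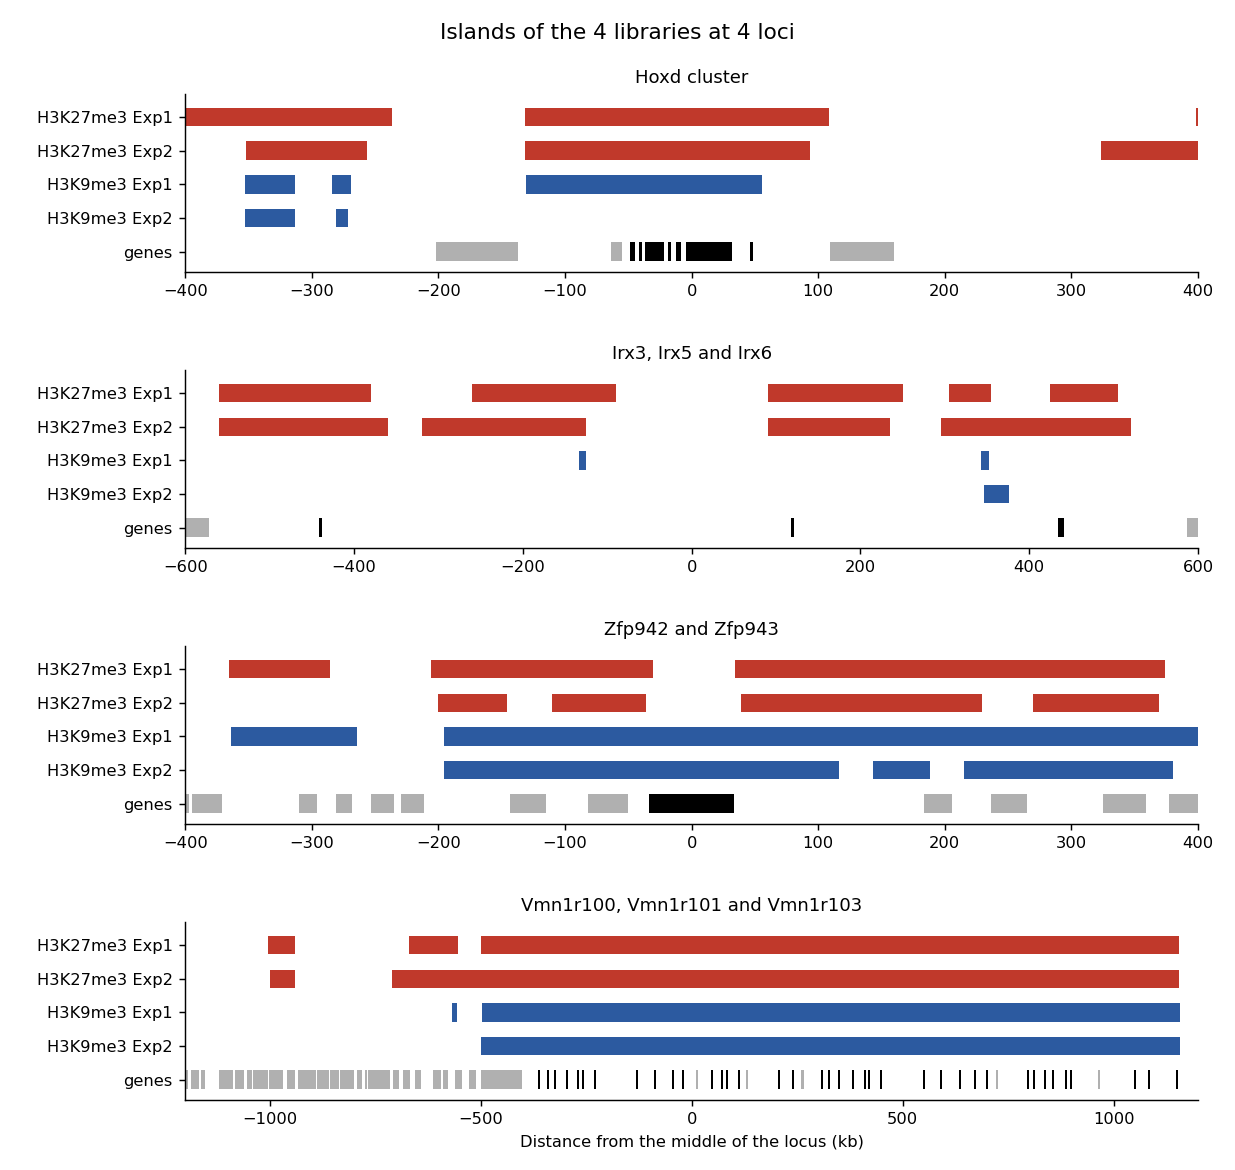
Islands of H3K27me3 (red) and H3K9me3 (blue) in each experiment at 4 loci, as distance from the middle of the locus in kb (x axis, with a different range in each panel). In the bottom row of each panel protein-coding genes are grey, and Hoxd, Irx, Zfp942 and Zfp943, and Vmn1r genes are black. H3K9me3 covers Hoxd in Exp1 and not in Exp2, is nearly absent around Irx3, Irx5 and Irx6, lies over Zfp942 and Zfp943 where H3K27me3 breaks off, and covers the Vmn1r genes together with H3K27me3, which in Exp2 reaches further to the left.

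The Irx3, Irx5 and Irx6 genes, homeobox factors that lie together on chromosome 8 (chr8:91798511-92680956), showed H3K27me3 with little H3K9me3. H3K27me3 covered 51.8% of the span in Exp1 and 64.3% in Exp2, against 2.04% and 3.40% for H3K9me3. Irx3 carried H3K4me3 as well in both experiments.

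Signalling ligands had H3K27me3 only or neither mark. Of 19 Wnt ligands 12 were H3K27me3 only, among them Wnt1, Wnt10a and Wnt10b, of 22 Fgf ligands 7, and of 21 Bmp and Gdf ligands 6, which made 25 of 62 (40.3%), against 9.62% of all genes. In these 62 genes 0 were H3K9me3 only, against 1.62% of all genes, and 0 had both, against 10.2%. Against the same shares, keratins, the intermediate filaments of epithelia, had 26 of 53 genes H3K27me3 only, 0 H3K9me3 only and 0 both, and all 26 were free of H3K9me3 in both experiments. Potassium channels had 20 of 80 H3K27me3 only, with Kcne4 H3K9me3 only and Kcnk16 with both. H3K27me3 covered 100% of Kcne4 in Exp1 and 0% in Exp2.

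Most genes of retinal cell types had neither mark, a lower share than over all genes, and those with a mark mostly had H3K27me3 only. Of 143 genes typical of Müller glia, progenitors and retinal neurons, 97 (67.8%) had neither, against 78.6% of all genes. H3K27me3 only were 42 (29.4%), against 9.62% of all genes, and 0 were H3K9me3 only, against 1.62%. The cone gene Cngb3 lay just outside the threshold and counted as neither. It had 49.7% H3K9me3 in each experiment, against 4.35% and 0% H3K27me3. Cabp5, Isl1, Olig1 and Olig2 (2.80%) had both, against 10.2%. H3K27me3 only was found at 9 of 13 amacrine, 9 of 20 ganglion, 3 of 6 horizontal, 4 of 16 bipolar, 6 of 16 progenitor and 6 of 16 neurogenic genes, and at 3 of 13 cone, 1 of 25 rod and 2 of 22 Müller glia genes, the last near the share of all genes. The Müller glia genes were Sox9 and Rlbp1, a retinaldehyde-binding protein gene of Müller glia, which was covered over 100% by H3K27me3 in both experiments, 0% by H3K9me3, and had H3K4me3 at an end. Pou4f2, Pou4f3 and Lhx1 had 100% H3K27me3, 0% H3K9me3 and no H3K4me3 at an end in both experiments. Glul, Slc1a3 and Crx, a photoreceptor transcription factor gene, had 0% of both marks. Of 12 microglia genes 6 were H3K27me3 only, including the complement genes C1qa, C1qb and C1qc.

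Olig1 and Olig2, transcription factor genes of the oligodendrocyte lineage (chr16:91225550-91271939), were exceptions among the neurogenic genes. Both were covered over 100% by both marks in both experiments. The H3K27me3 islands were 230 kb wide in Exp1 and 285 kb in Exp2, against H3K9me3 islands of 84 kb and 75 kb. In the authors' deposited table the H3K9me3 islands had p-values of 1.62e-09 and 5.45e-05, and those of H3K27me3 7.15e-192 and 3.44e-94. Isl1, of bipolar and ganglion cells, had 100% and 100% H3K27me3, against 50.2% and 100% H3K9me3, and so lay just inside the threshold. Grm6, the glutamate receptor gene of ON bipolar cells, had 100% and 100% H3K27me3, against 7.63% and 100% H3K9me3, and did not count for H3K9me3.

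Imprinted genes with a mark split by locus. Of 29 imprinted genes 7 (24.1%) were H3K27me3 only, 0 H3K9me3 only, 5 (17.2%) had both and 17 (58.6%) had neither. Over all genes these shares were 9.62%, 1.62%, 10.2% and 78.6%. Ube3a and Kcnq1 were among those with neither. Those with both marks were Mkrn3, Magel2, Ndn, Peg12 and Snrpn, which lie together on chromosome 7 in the region that corresponds to the human Prader-Willi locus. Mkrn3, Magel2 and Ndn were covered over 100% by both marks in both experiments, and Snrpn over 63.1% and 78.1% by H3K27me3, against 95.6% and 90.5% by H3K9me3. Ascl2, Cdkn1c, Igf2, Phlda2 and Slc22a18 of distal chromosome 7 had H3K27me3 only, with no H3K9me3 in either experiment. Dio3 had 0% and 100% H3K9me3. Peg3 had 0% of both marks.

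Chemosensory receptors, which are expressed in the nose and tongue and sit in large tandem clusters, held many of the genes with H3K9me3, with or without H3K27me3. Of 1110 olfactory receptors 176 (15.9%) were H3K27me3 only, 112 (10.1%) H3K9me3 only, 491 (44.2%) had both and 331 had neither. Of all genes, 9.62% were H3K27me3 only, 1.62% H3K9me3 only and 10.2% had both. Of 230 vomeronasal type 1 receptors 20 (8.70%) were H3K27me3 only, near the share of all genes. Another 14 were H3K9me3 only and 170 (73.9%) had both. Of 123 vomeronasal type 2 receptors 5 (4.07%) were H3K27me3 only, 15 H3K9me3 only and 92 (74.8%) had both. Receptors of these lists and of taste and trace amines were 1516 of the 21887 genes. They made up 207 (9.83%) of the H3K27me3-only genes, 147 (41.5%) of the H3K9me3-only genes and 767 (34.4%) of those with both. The H3K9me3-only counts differed between experiments. They were 62 in Exp1 and 142 in Exp2 for olfactory receptors, 5 and 12 for type 1 and 5 and 14 for type 2 vomeronasal receptors. With the other mark absent from both experiments, 95 olfactory receptors stayed H3K27me3 only and 36 H3K9me3 only, and for the vomeronasal type 1 receptors 7 and 1. Over all genes the same rule left 7.33% and 0.471%. The 95 of 1110 olfactory receptors and the 1 of 230 type 1 receptors were near these shares. Of the 112 H3K9me3-only olfactory receptors, 56 lay on chromosome 2 and 24 on chromosome 7. Chromosome 11 had 30 H3K27me3-only and 33 doubly marked olfactory receptors among 83 and 0 with H3K9me3 only.

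Of the 126 vomeronasal type 1 receptors on chromosome 7, 121 had both marks. The cluster around Vmn1r100 lay in an H3K27me3 island that was 1655 kb wide in Exp1 and 1865 kb wide in Exp2, against H3K9me3 islands of 1653 kb and 1656 kb. The H3K27me3 islands began at chr7:19965001 in Exp1 and chr7:19755001 in Exp2, against chr7:19968001 and chr7:19965001 for H3K9me3. In both experiments they ended at chr7:21620000 for H3K27me3 and chr7:21621000 for H3K9me3. On chromosome 6, 11 of 51 type 1 receptors were H3K27me3 only, 8 H3K9me3 only and 23 had both.

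Zinc finger genes had more members with H3K9me3 only than with H3K27me3 only, unlike the developmental lists. Many mouse Zfp genes encode repressors with a KRAB domain that recruit Setdb1 to transposons. Of 397 Zfp genes 19 were H3K27me3 only, 35 (8.82%) H3K9me3 only, 58 (14.6%) had both and 285 had neither. The marked states held 9.62%, 1.62% and 10.2% of all genes. With the other mark absent from both experiments 9 and 14 Zfp genes were left, against 7.33% and 0.471% of all genes. Zfp809, a repressor of retroviruses, had 0% H3K27me3 in both experiments, against 100% and 95.3% H3K9me3, and Zfp141 had 0% H3K27me3, against 100% H3K9me3 in each. At Zfp942 and Zfp943 (chr17:21926960-21994366) H3K27me3 covered 4.51% of the span in Exp1 and 0% in Exp2, against 100% in each for H3K9me3. In Exp1 the H3K27me3 island to the left ended at chr17:21930000, and the next began 34.3 kb to the right of the middle of the span. H3K4me3 lay at an end of Zfp141 and Zfp809 in both experiments, and at 343 of the 397 Zfp genes in Exp1 and 344 in Exp2. On chromosome 17, 5 Zfp genes of 46 were H3K27me3 only, 10 H3K9me3 only and 6 had both, and on chromosome 4, 17 of 27 had both and 0 had either mark alone.

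Several other tandem clusters had both marks at many of their genes, against 10.2% of all genes with both, 9.62% with H3K27me3 only and 1.62% with H3K9me3 only. This held for 21 of 24 major urinary protein genes, whose products carry pheromones, 44 of 52 Prame family genes, 41 of 70 defensins, 35 of 71 cytochrome P450 genes of families 2 to 4, 34 of 57 clustered protocadherins and 17 of 31 Rhox genes, reproductive homeobox genes on X. The alpha and the gamma protocadherin genes share their last exons within a cluster, so their spans overlap and their coverages are not independent. Of 70 defensins 0 had either mark alone, and of 24 major urinary protein genes 3 were H3K27me3 only, each with H3K9me3 over at least 50% of the gene in Exp1 and 0% in Exp2. The prolactin family, placental hormones on chromosome 13, differed: 0 of 26 genes were H3K27me3 only, 5 were H3K9me3 only and 3 had both. Prl3d1 had 0% H3K27me3 and 100% H3K9me3 in both experiments. Serpina and Serpinb genes had all 3 states, with 14 of 52 H3K27me3 only, 3 H3K9me3 only and 17 with both. Of the 3 H3K9me3-only genes 0 were free of H3K27me3 in both experiments. H3K27me3 covered 100% of Serpinb3a and of Serpinb3d in Exp1 and 0% in Exp2.

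**Figure D4:**
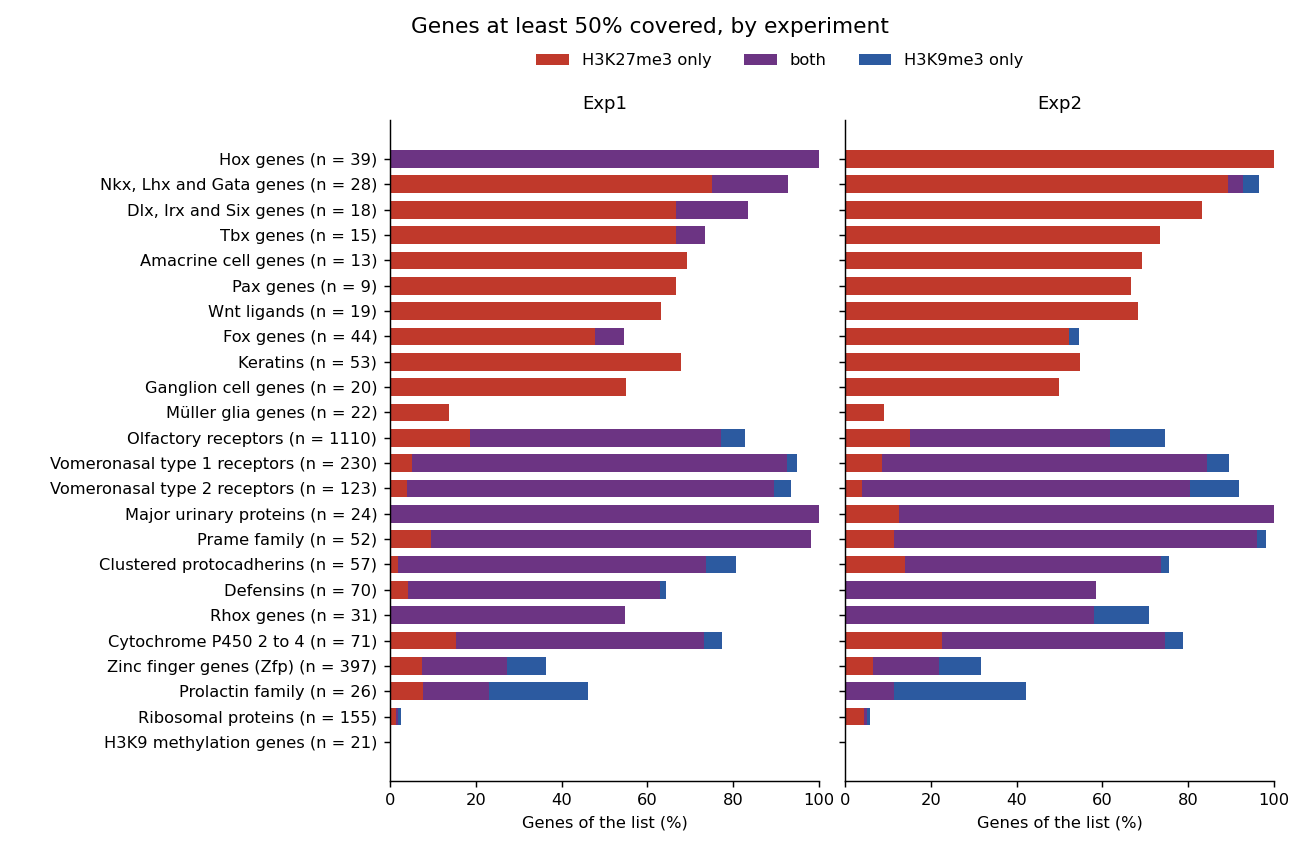
Percent of the genes of 24 lists (x axis) that were at least 50% covered by H3K27me3 only (red), both marks (purple) or H3K9me3 only (blue), in Exp1 (left) and Exp2 (right), with the number of genes of each list beside its name. The marked part of the developmental lists is mostly red and that of the receptor lists mostly purple in both experiments, except that the 39 Hox genes are purple in Exp1 and red in Exp2.

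Nearly all ribosomal protein and proteasome genes had neither mark. Of 155 ribosomal protein genes 152 (98.1%) had neither, against 78.6% of all genes. The exceptions were Mrpl4 (H3K27me3 only), Rpl10l (H3K9me3 only) and Rpl39l (both), of which the last pair are copies used in testis. Of 39 proteasome genes 36 (92.3%) had neither and 3 (7.69%) were H3K27me3 only, the latter near the 9.62% of all genes. Of 21 genes that write, read or erase H3K9 methylation, Setdb1 among them, 0 had either mark. Of 31 Polycomb genes 6 (19.4%) were H3K27me3 only, against 9.62% of all genes, among them Cbx2 and Ring1, while Ezh2 had 0% of both marks.

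The longest genes of each state were of different kinds. Among genes at least 90% covered in their state in both experiments, the longest H3K27me3-only genes were Slit3 (587 kb), an axon guidance gene, Spock1 (487 kb), a proteoglycan gene, and Prdm16 (321 kb), a transcription factor gene. The longest H3K9me3-only genes were Cfhr2 (48.4 kb), a complement factor H related gene, Cldn34c1 (42.1 kb) and Cyp2j12 (41.8 kb). The longest with both were Skint5 (522 kb), Zfp978 (267 kb) and Gm40862 (238 kb). Median gene length was 8.33 kb for H3K27me3 only, 3.76 kb for H3K9me3 only and 4.81 kb for both, against 21.3 kb for neither. Without the receptor genes the medians were 9.83 kb, 14.8 kb and 9.48 kb, against 22.1 kb, so the order of the marked states turned. A gene counted only when islands covered a fixed share of its length, which is harder for long genes to meet. Stretches were 25 kb wide by the median for H3K27me3 only, 16 kb for H3K9me3 only and 39 kb for both. The rule thus favours short genes in the marked states and limits their longest genes. How far it sets the lengths given here was not tested. Protein-coding genes made up 30.1% of the H3K27me3-only length, 15.4% of the H3K9me3-only length and 14.1% of the length with both, against 38.0% of the genome.

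H3K4 marks, which the states did not use, separated H3K27me3 only from the states with H3K9me3. H3K4me3 islands lay within 1 kb of an end of 38.1% of H3K27me3-only genes in Exp1 and 41.8% in Exp2, of 20.6% and 20.6% of H3K9me3-only genes, of 11.7% and 12.6% of genes with both, and of 69.2% and 69.9% of genes with neither. H3K4me1, a mark of enhancers and promoter flanks, lay at an end of 56.7% and 51.4%, 20.1% and 10.2%, 8.74% and 12.3%, and 75.8% and 63.8% of them in the same order. The order of H3K27me3 only above both other marked states held in each experiment for each H3K4 mark. Without the receptor genes the H3K4me3 shares were 42.3% and 46.2% for H3K27me3 only, 35.3% and 35.3% for H3K9me3 only and 16.9% and 18.9% for both, so the first pair of states lay closer together. With the other mark absent from both experiments, H3K4me3 lay at 43.2% and 47.0% of H3K27me3-only genes, against 21.4% and 21.4% of H3K9me3-only genes, with receptors included, which were 41 of those 103 H3K9me3-only genes. The intervals of such shares over genes were not computed, because genes of a cluster are not independent.

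**Figure D5:**
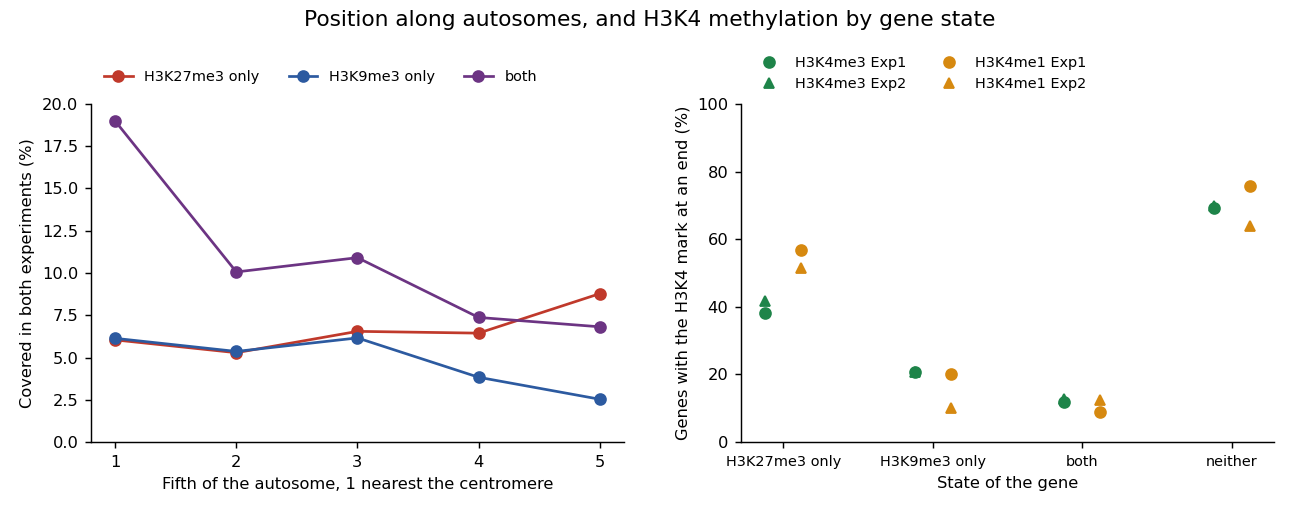
Left, percent of the autosomal length covered by H3K27me3 only (red), H3K9me3 only (blue) and both (purple) in both experiments (y axis) in 5 equal parts of each autosome (x axis, 1 nearest the centromere). Right, percent of genes of each state (x axis) with an H3K4me3 (green) or H3K4me1 (orange) island within 1 kb of a gene end (y axis), Exp1 as circles and Exp2 as triangles. The shared part is 19.0% in part 1 and 6.82% in part 5, and H3K27me3-only genes lie between the other marked states and genes with neither.

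Promoter base composition could be compared for 2 states. The promoter table held a start for 294 of 354 H3K9me3-only genes and 1877 of 2230 genes with both marks. Observed over expected CpG in the 300 bases around the start had a median of 0.160 (quartiles 0.0808 and 0.387) for H3K9me3 only and 0.132 (quartiles 0.0647 and 0.255) for both, and the quartiles overlapped. Without receptor genes the medians were 0.295 for H3K9me3 only (170 promoters) and 0.152 for both (1203 promoters), so they lay further apart. For H3K27me3-only genes and genes with neither mark the table held 78.6% and 79.5%, under 80%, so the same comparison for them is void and no value is given.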

How the data were processed

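Chromatin immunoprecipitation libraries of H3K27me3 and H3K9me3 (2 experiments each) were compared, with H3K4me3 and H3K4me1 libraries as a further readout. Input libraries were not analysed here. Per the labels' protocols, chromatin of 25000 fixed cells was used per immunoprecipitation, and libraries of 500 pg were sequenced as single-end reads of 50 bp. Per the submitters' processing notes, FastQC, BWA 0.7.5a, SAMtools 1.3.1, bedtools 2.17, SICER and mm10 were used. The sources used here do not give SICER's settings, its control or how reads with several matches were treated. The authors deposited 1 island list per library, with positions and a p-value per island. It may be adjusted or not, which no header or label says, and 41 to 92 islands of each repressive list exceeded 0.05. The lists carry no read counts, and depth is unknown.

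Islands began and ended on steps of 5000 bp for H3K27me3 and 3000 bp for H3K9me3, with smallest gaps of 35000 and 24000 bp, so the marks were called at different resolution. Islands were laid on bins of 200 bp. Chromosome lengths were taken as the furthest base of any island or annotated gene (2723 Mb in all, unsequenced starts included). Gene positions are those of RefSeq on GRCm38.p6, the same sequence as mm10, and 21887 of 21900 protein-coding genes were on the chromosomes used. The table has no strand, so H3K4 marks were read within 1 kb of both gene ends. Differences between marks were tested by exact permutation over libraries. The code was checked on simulated islands. The members and the 53 gene lists, with 3507 genes, were chosen with earlier results of these data known. Named genes were a fixed set, up to 3 members of each state per list, the 8 longest genes of each state and genes of the 3 widest stretches. Other names in lists are all members of a state, or were chosen after their values were seen. Of the imprinted list, 2 symbols matched no gene. Alternatives were single experiments, either experiment, states called within experiments, stricter p-values, no sex chromosomes, other gene coverage and a shared grid. Tools were Python 3.11.15, numpy 2.4.6, pandas 2.3.3 and matplotlib 3.10.9.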

Additional observations from a re-analysis of the deposited data

Results flagged for a closer look

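The difference in coverage between the marks ran opposite ways on X and on the autosomes. H3K27me3 minus H3K9me3 was -6.80 percentage points on X, with -4.09 in Exp1 and -9.51 in Exp2, and 3.50 on the autosomes, with 4.42 and 2.58. Both experiments moved one way on X and the other way on the autosomes. The difference between X and autosomes was not tested by a test of its own, and the sex of the animals is not given on the labels.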

How the results depend on the processing

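Of the values recomputed under other settings, 58 stayed within the spread between experiments, or within 1.5 times for counts of genes, 22 moved further and 0 changed sign. H3K27me3 only covered 6.13% of the genome in the main reading, 7.65% to 8.78% in single experiments, 9.89% with islands of either experiment and 4.72% with islands at or below the median p-value of their list. H3K9me3 only covered 5.10%, and 5.27% to 5.95%, 5.71% and 4.05% under the same settings. Both marks covered 11.0%, and 11.8% to 17.1% in single experiments, 18.3% in either and 7.78% with islands at or below the median p-value. The share of H3K9me3 in H3K27me3 was 68.4%, 66.4% to 76.5% in single experiments and 76.2% in either. H3K27me3 minus H3K9me3 on X was -8.44 points for bases covered in both experiments, and -9.51 to -4.09 in single experiments. H3K9me3-only genes numbered 354 in the main reading, 308 to 472 in single experiments and 745 when 1 bp of the gene sufficed. The cause of these moves was not tested.

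The replicate block called states within each experiment and then required them in both. It gave 4.61% of the genome as H3K27me3 only, 1.69% as H3K9me3 only, 70.5% of H3K27me3 in H3K9me3, 86.7% of H3K9me3 in H3K27me3, -3.33 points on X and 131 H3K9me3-only genes. Requiring the other mark to be absent from both experiments, chosen after seeing the data, is the same rule for bases (4.61% and 1.69%), and left 103 H3K9me3-only genes. The block is stricter by construction. The numbers are not stated to pair libraries. Exp1 minus Exp2 coverage in 2621 windows of 1 Mb had a correlation of 0.36 between marks, a hint and not a design. Depth is unknown, so how far it limits weak islands cannot be said.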

Other observations

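Gene classes other than protein-coding genes, of which 9.62% were H3K27me3 only, 1.62% H3K9me3 only and 10.2% had both, were read by the same rule. Of 9944 pseudogenes 776 (7.80%) were H3K27me3 only, 536 (5.39%) H3K9me3 only and 2437 (24.5%) had both. Of 394 V segments, the variable parts of antigen receptor genes that lymphocytes rearrange, 60 (15.2%) were H3K27me3 only, 12 (3.05%) H3K9me3 only and 241 (61.2%) had both. Of 408 tRNA genes 113 (27.7%) were H3K27me3 only, 3 H3K9me3 only and 40 had both. Of 1228 miRNA genes 113 (9.20%) were H3K27me3 only, 19 (1.55%) H3K9me3 only and 20 (1.63%) had both, so their shares with a single mark were near those of protein-coding genes. Of 12727 lncRNA genes 1384 (10.9%) were H3K27me3 only, 174 (1.37%) H3K9me3 only and 584 (4.59%) had both. Members of these classes lie in clusters and share islands, so the shares are descriptions of these libraries.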
